A study of Mus musculus with 32 samples.

Results

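The genes described here encode parts of the thin and thick filaments that come in different isoforms in different muscles, namely 3 alpha actins, 6 myosin light chains and the skeletal muscle kinase of the regulatory light chain. They were taken by symbol (Acta1, Actc1, Acta2, Myl1, Myl2, Myl3, Myl4, Mylpf, Myl6b and Mylk2), and 10 of 10 were found among the 33397 genes of the table. RNA came from the gastrocnemius (GAS), a calf muscle driven by a branch of the sciatic nerve. Libraries covered 0, 1, 3, 5, 7, 14, 21 and 28 d post denervation, with 4 libraries at each of the 8 time points and 32 in all.

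A myosin head carries an essential and a regulatory light chain on its lever arm, and muscles of different speed and age use different light chain genes. Adult fast fibres use Myl1 (essential) and Mylpf (regulatory), slow fibres use Myl3 and Myl2, which are also the ventricular chains of the heart, and developing muscle adds Myl4, the embryonic and atrial essential chain. Acta1 is the alpha actin of adult skeletal muscle, Actc1 that of the heart and of developing skeletal muscle, and Acta2 that of vascular smooth muscle. Mylk2 phosphorylates the regulatory light chain when calcium-bound calmodulin activates it.

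All samples were labelled as GAS muscle of C57BL/6 mice with sciatic nerve transection, the 0 d samples included. Per the methods, the mice were young adult males of the C57BL/6J strain, and a short piece of the left sciatic nerve was removed. The 0 d libraries were taken as the undenervated reference. Their columns carry the prefix C and no day, and they were assigned to 0 d because every other time point has columns named for its day. The paper names a sham, nondenervated group as the reference of its RNA-seq comparisons, while the labels give 0 d and no sham, so whether the C columns are sham-operated mice is not settled here and time since surgery and denervation cannot be told apart. The study describes its sequenced samples as biologically independent, while the labels do not tie a library to an animal. The libraries of a group are numbered here in column order, and the numbers only name them.

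FPKM scales a gene's fragments to exon length and to library size, and the values corresponded to 14199902 to 17561584 fragments a library. The 10 genes took 3.83% to 4.28% of the fragments at 0 d, 2.04% to 2.65% at 3 d and 2.66% to 3.08% at 28 d. Mitochondrial genes took 14.5% to 18.2% at 0 d and 6.7% to 9.28% at 7 d and 14 d apart from 1 library of 7 d at 11.3%. Because FPKM is a share of the library, median-ratio scaling was run beside it, and it moved the median of genes averaging 1 FPKM or more by 0.14 (1 d) to 0.31 (14 d) on the log2 scale. Differences after this scaling are given below as rescaled values. The labelled tissue matched its markers, since 6 skeletal muscle genes summed to 11831 to 13676 FPKM at 0 d. Heart muscle genes (Myh6, Tnni3, Mybpc3, Nppa, Ryr2) summed to at most 1.18 FPKM in any library. The labels' extraction text mentions retina, while every sample is labelled as GAS muscle. Of 6 retina genes looked for, 5 were in the table, and these summed to at most 0.266 FPKM in any library. On the first principal component, replicate 1 of 3 d lay at -20.3 while the other libraries of 3 d lay at 0.18 to 5.96, and leaving it out changed no call on the 10 genes against 0 d.

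Against 0 d, a gene was called changed at a Benjamini-Hochberg adjusted p under 0.05 over the 22071 genes tested and at least 1.5-fold on log2(FPKM + 1), by limma. At 1 d, 0 of the 10 genes were higher and 2 were lower, where 8.84% of all tested genes were called. At 3 d 1 was higher and 6 were lower (background 19.3%), and the counts were 2 and 5 at 5 d (18.8%) and 2 and 6 at 7 d (19.5%). By 14 d they were 2 and 4 (18.5%), then 2 and 3 at 21 d (15.7%) and 3 and 3 at 28 d (18.3%). Among all tested genes, higher calls made up 6.34%, 13.2%, 14.9%, 15.4%, 14.6%, 11.8% and 14.2% at the 7 times in turn, and lower calls 2.49%, 6.03%, 3.86%, 4.1%, 3.83%, 3.93% and 4.1%. After rescaling, lower calls among the 10 genes numbered 7, 7, 7, 7, 8, 6 and 5 in the same order, and higher calls numbered 0, 1, 2, 2, 2, 2 and 2. On that scale lower calls made up 4.68%, 9.15%, 7.68%, 7.92%, 7.53%, 7.15% and 8.11% of all tested genes, and higher calls 4.14%, 9%, 6.7%, 7.15%, 6.56%, 6.43% and 6.57%. The median difference of the 10 genes was -0.53 log2 at 1 d, -1.21 at 3 d and -0.17 at 28 d, beside 0.03, 0.06 and 0.14 over all tested genes. In the F test over the 8 time points 9 of the 10 genes passed, where 63.2% of all tested genes did. Acta2 was the exception, with an adjusted p of 0.128 as deposited, and it passed the F test after rescaling. Genes with all 4 libraries below all 4 of 0 d numbered 6, 7, 6, 5, 6, 7 and 4 of the 10 at the 7 times, beside 8.6%, 12.3%, 8.93%, 8.47%, 8.13%, 9.99% and 9.06% of all tested genes. Genes with all 4 above numbered 0, 1, 2, 2, 2, 2 and 2, beside 19.9%, 23%, 35.9%, 32.4%, 36.8%, 32.9% and 36.6%. GAS muscle is a mixture of cells, and fewer cells of a type and less RNA per cell cannot be told apart in these values.

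**Figure D1:**
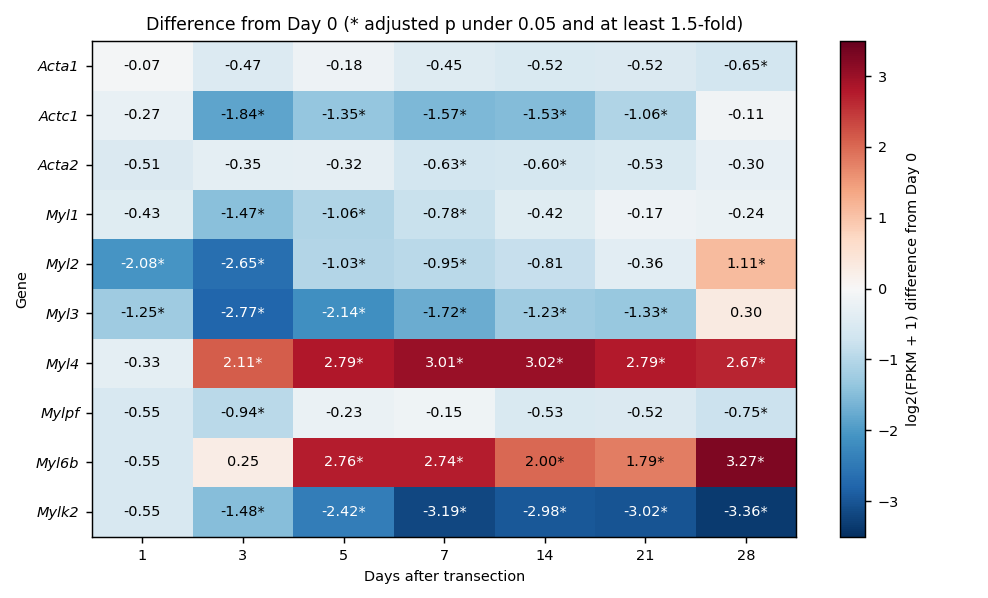
Difference from 0 d on the log2(FPKM + 1) scale for each gene (rows) and day (columns), coloured from blue (lower) to red (higher), with asterisks on called values. Mylk2 reached -3.36 at 28 d, Myl4 and Myl6b reached 3.02 and 3.27, and Myl2 went from -2.65 at 3 d to 1.11 at 28 d.

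Acta1 (ENSMUSG00000031972, chr8:123891769-123894751, minus strand, GRCm38 as for all positions here) was the most abundant of the genes and averaged 63.9% of its 0 d mean at 28 d. It stood at 14567, 14573, 14741 and 11652 FPKM at 0 d, where replicate 4 lay below the other libraries. At 3 d it stood at 7821, 9702, 11254 and 11589 FPKM, and at 28 d at 8621, 8439, 7923 and 10486 FPKM. All libraries of 3, 7, 14, 21 and 28 d lay below all libraries of 0 d, while those of 1 d and 5 d overlapped them. Only the 28 d difference was called lower (-0.65 ± 0.13 log2, SE, adjusted p = 0.000122), and its rescaled value was -1.03. After quantile normalization, which assigns fixed values to the ranks, the 28 d value was 0.12 and was not called, and after conversion to TPM it was -0.47 and under 1.5-fold. Differences at 3, 7, 14 and 21 d were -0.47, -0.45, -0.52 and -0.52 with adjusted p of 0.00131 to 0.00458, short of 1.5-fold as deposited and called lower after rescaling (-0.70, -0.83, -0.92 and -0.82), while quantile normalization gave -0.04, 0.26, 0.35 and 0.13, none called. Without replicate 4 of 0 d, the 14 d and 21 d differences were -0.60 and -0.60 and were called.

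Actc1 (ENSMUSG00000068614, chr2:114047282-114053548, minus strand) was lower from 3 d to 21 d and overlapped 0 d again at 28 d. It held 55.6, 30.02, 64.1 and 57.2 FPKM at 0 d. At 3 d the libraries held 10.01, 11.05, 12.9 and 21.1 FPKM, all below 0 d. It was lower at 3 d (-1.84 ± 0.33 log2, adjusted p = 3.46e-05), 5 d (-1.35), 7 d (-1.57), 14 d (-1.53) and 21 d (-1.06, adjusted p = 0.0103). At 28 d it held 37.1, 38.4, 71.4 and 43.9 FPKM, which overlapped 0 d (-0.11 ± 0.33, adjusted p = 0.818), and conversion to TPM turned that value to 0.06. The 28 d libraries were above those of 14 d by 1.42 log2 (adjusted p = 0.0114), in a comparison added after the values were seen. Heart markers were near 0 in all libraries.

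Acta2 (ENSMUSG00000035783, chr19:34241090-34255590, minus strand) held 42.7, 34.9, 40.2 and 35.1 FPKM at 0 d and averaged 24.5 to 31.7 FPKM later. It was lower at 7 d (-0.63 ± 0.21 log2, adjusted p = 0.0132) and at 14 d (-0.60, adjusted p = 0.018). Both calls were lost on the TPM scale (-0.45 and -0.41). The 7 d call was also lost without replicate 1 of 0 d (-0.58) or replicate 3 of 7 d (-0.50), and the 14 d call without replicate 1 (-0.55) or 3 (-0.58) of 0 d or replicate 1 (-0.56) or 3 (-0.55) of 14 d. Without replicate 4 of 1 d the 1 d difference was called (-0.71), as was that of 21 d without replicate 1 of 21 d (-0.65). Rescaled values were called lower at every time point but 3 d. Other smooth muscle genes (Myh11, Tagln, Cnn1, Smtn, Lmod1 and Actg2) summed to 33.1 to 39.9 FPKM at 0 d and to 15.6 to 26.8 at 3 d. On the days on which Acta2 was called they summed to 23.2 to 32.6 FPKM (7 d) and 26.9 to 32.2 FPKM (14 d), all below 0 d, and at 28 d to 24.7 to 31.4 FPKM. Of the 6 genes, 1 was lower at 1 d and at 3 d and 0 were called from 5 d to 28 d as deposited. After rescaling 2 were lower at 1 d, 3 d and 7 d, 3 at 5 d, and 4 at 14 d, 21 d and 28 d. Among the 6 genes, Tagln was listed at 0.394 FPKM or less, with 67.9% of its exon bases in exons of other genes. Myl9, the smooth muscle light chain, was called lower on both days on which Acta2 was, at 7 d (-0.74 log2) and 14 d (-0.59). Their part in the Acta2 values was not tested.

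Reads can be split between genes of near-identical sequence, so the 3 actins were compared base by base. Their coding sequences (GENCODE mouse release 21, GRCm38), without the stop codon, are 1131 bases each, and Acta1 differs from Actc1 at 155 positions, 148 of them at the wobble base of a codon, and from Acta2 at 165. The longest identical run was 29 bases for either pair and 23 bases between Actc1 and Acta2, and 0 windows of 150 bases were identical in any pair. The first 90 coding bases hold 26 of the differing positions more than any other window of that length read in frame. They are printed because the separate Acta1, Actc1 and Acta2 values rest on such positions, with capitals where the 3 genes are not the same. They lie on the minus strand, in 1 exon each, at chr8:123893608-123893697 (Acta1), chr2:114051942-114052031 (Actc1) and chr19:34252464-34252553 (Acta2).
Acta1: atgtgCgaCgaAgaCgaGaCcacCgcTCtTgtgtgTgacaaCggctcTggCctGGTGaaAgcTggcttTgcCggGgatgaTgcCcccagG
Actc1: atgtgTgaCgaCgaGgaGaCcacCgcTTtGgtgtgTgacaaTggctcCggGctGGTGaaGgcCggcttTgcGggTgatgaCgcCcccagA
Acta2: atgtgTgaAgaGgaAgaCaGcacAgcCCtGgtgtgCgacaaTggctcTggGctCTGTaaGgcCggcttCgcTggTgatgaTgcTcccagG

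Myl1 (ENSMUSG00000061816, chr1:66924295-66945404, minus strand), the fast essential chain, fell by 3 d and was above its 3 d level at 28 d (1.24 log2, in a comparison added after the values were seen). It held 4982, 4735, 4544 and 5237 FPKM at 0 d and 2004, 1554, 1672 and 1813 FPKM at 3 d. It was lower at 3 d (-1.47 ± 0.11 log2, adjusted p = 2.48e-12), 5 d (-1.06) and 7 d (-0.78). At 1 d and 14 d all libraries also lay below 0 d, with differences of -0.43 and -0.42 that were short of 1.5-fold as deposited and called lower after rescaling (-0.62 and -0.82). At 21 d it held 4227 to 4479 FPKM, 88.7% of the 0 d mean, and at 28 d it held 4040, 3896, 4380 and 4231 FPKM. These libraries still lay below all of 0 d, with a difference of -0.24 ± 0.11 (adjusted p = 0.0712) as deposited, -0.62 and called lower after rescaling, and 0.03 and not called after quantile normalization. The 5 d and 7 d calls were lost after quantile normalization (-0.15 and -0.09), while the 3 d difference shrank to -0.74 and was still called. Part of the reads of Myl1 may have been counted elsewhere, since the processed pseudogene Mylf-ps (chr12:101221997-101222417, minus strand) shares 99.3% of its 421 bases with a Myl1 transcript of 1082 bases in runs of at least 10 bases, the longest of 167 bases. Mylf-ps was listed at 480 ± 24.4 FPKM (SD, n = 4) at 0 d and 164 ± 13.4 at 3 d, between 8.74% and 10.8% of Myl1 in every library.

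Mylpf (ENSMUSG00000030672, chr7:127208890-127214298, plus strand), the fast regulatory chain, was called lower as deposited at 3 d and at 28 d, and after rescaling at every time but 7 d. It held 7413, 6712, 6395 and 7690 FPKM at 0 d and 3476, 3404, 3715 and 4127 FPKM at 3 d (-0.94 ± 0.13 log2, adjusted p = 5.34e-07). The 7 d libraries held 6650, 4811, 7905 and 6410 FPKM and overlapped 0 d, with a difference of -0.15 (adjusted p = 0.371), 0.05 on the TPM scale and 0.50 after quantile normalization. At 28 d Mylpf held 4065, 3740, 4538 and 4465 FPKM (-0.75 ± 0.13, adjusted p = 1.83e-05, rescaled -1.13). That call was lost on the TPM scale (-0.57) and after quantile normalization (-0.36), and the 3 d difference was 0 after quantile normalization. Differences of -0.55, -0.53 and -0.52 at 1, 14 and 21 d fell short of 1.5-fold as deposited and were called lower after rescaling (-0.74, -0.92 and -0.82), and the 1 d one was called without replicate 3 of 0 d (-0.59) or replicate 1 (-0.59) or 2 (-0.63) of 1 d. The 5 d difference was -0.23 as deposited and -0.62 and called lower after rescaling. Quantile normalization turned the 5 d and 14 d values to 0.27 and 0.29, neither called. Myl1 and Mylpf, the partners on fast myosin, were both lower at 3 d, while at 28 d only Mylpf was called as deposited, and their changes at 28 d were not tested against each other.

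**Figure D2:**
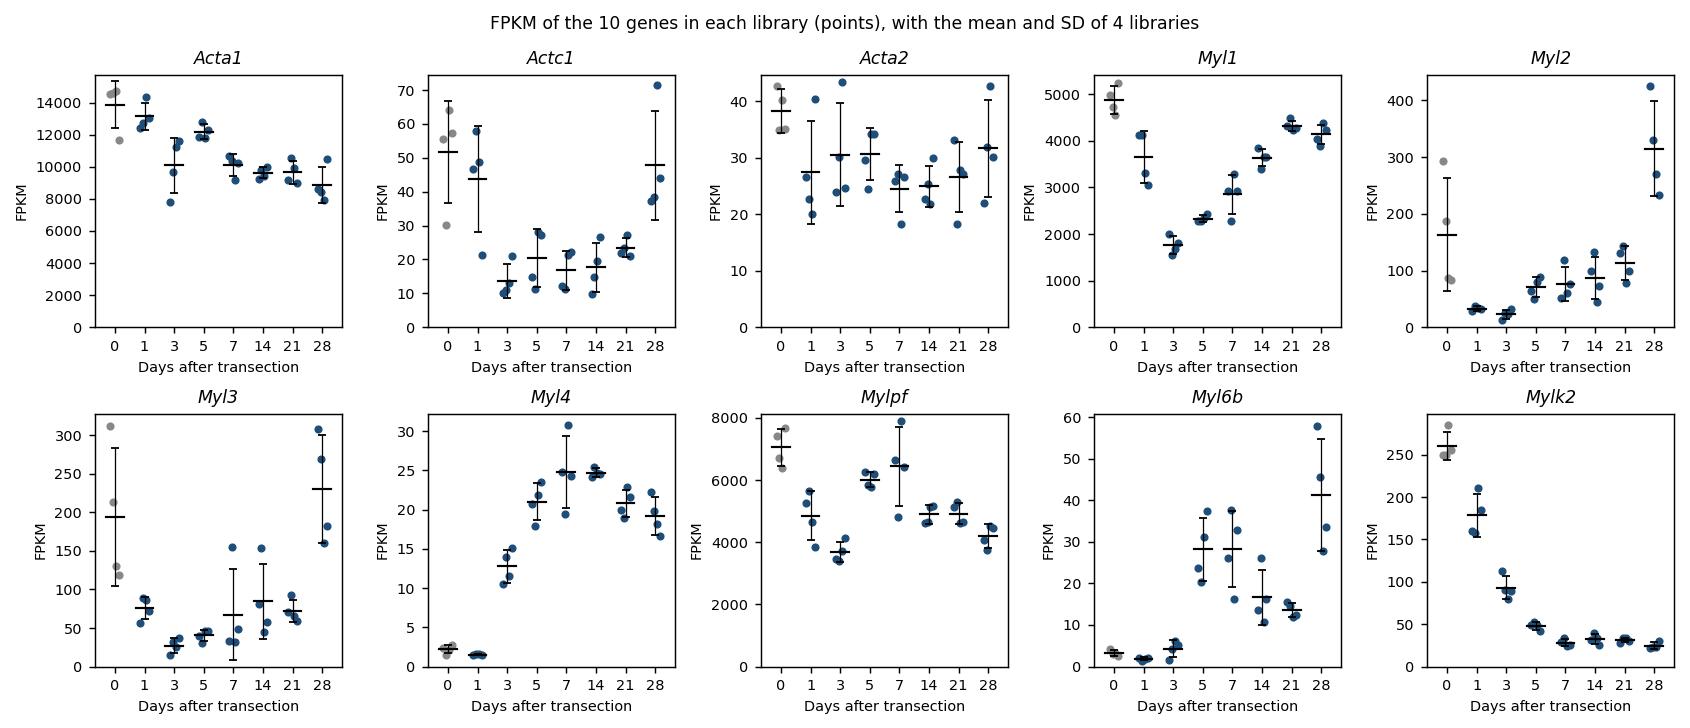
FPKM of each gene (1 panel a gene, linear axes from 0) against days after transection, with 1 point a library and the mean and SD of 4 libraries. Myl1 and Actc1 dip at 3 d, Mylk2 falls from 250 to 285 FPKM to 22.3 to 30.3 FPKM, and Myl2 and Myl3 spread widely within 0 d.

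The slow chains Myl2 (regulatory) and Myl3 (essential) were lower early and were higher at 28 d than at 3 d (3.76 and 3.07 log2, a comparison added after the values were seen). Myl2 (ENSMUSG00000013936, chr5:122100951-122113472, plus strand) held 293, 188, 87.3 and 82.8 FPKM at 0 d, a spread of 61.1% of the mean (coefficient of variation, n = 4). All libraries of 1 d (28.6, 37.7, 33.6 and 31.7 FPKM) and of 3 d (12.4, 24.4, 22.9 and 31.8 FPKM) lay below this range. Myl2 was lower by -2.08 ± 0.35 log2 at 1 d (adjusted p = 2.99e-05) and by -2.65 at 3 d (adjusted p = 3.46e-07). At 5 d and 7 d it was lower by -1.03 and -0.95 (adjusted p of 0.0177 and 0.0284), where 1 of 4 libraries overlapped 0 d at each time. The 5 d call was lost without replicate 1 (-0.68) or 2 (-0.90) of 0 d or replicate 2 of 5 d (-0.87). The 7 d call was lost without replicate 1 (-0.60) or 2 (-0.81) of 0 d or replicate 1 (-0.78) or 3 (-0.86) of 7 d, on the TPM scale (-0.76, adjusted p = 0.0769) and in a fit of these groups alone. At 14 d the difference was -0.81 (adjusted p = 0.0627), and it was called lower after rescaling (-1.20, adjusted p = 0.00594) and without replicate 3 (-1.04) or 4 (-1.06) of 0 d or replicate 2 of 14 d (-1.04).

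At 28 d Myl2 held 425, 331, 270 and 234 FPKM, higher than 0 d by 1.11 ± 0.35 log2 (adjusted p = 0.0103). The groups overlapped, with 2 of the 28 d libraries above all of 0 d. This call was lost after rescaling (0.73, adjusted p = 0.0934) and without replicate 3 (0.88) or 4 (0.86) of 0 d. Against 3 d, the 28 d level was higher by 3.76 ± 0.35 (adjusted p = 1.25e-09, rescaled 3.61), where 12% of all tested genes were called.

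Myl3 (ENSMUSG00000059741, chr9:110741861-110769798, plus strand) was lower at every time up to 21 d. It held 313, 214, 130 and 119 FPKM at 0 d and 14.3, 31.8, 25.2 and 36.6 FPKM at 3 d. It was lower at 1 d (-1.25 ± 0.40 log2), 3 d (-2.77, adjusted p = 1.1e-06), 5 d (-2.14), 7 d (-1.72), 14 d (-1.23) and 21 d (-1.33, adjusted p = 0.00759). Replicate 2 of 7 d held 155 FPKM beside 32.1 to 49.1 in the other libraries of that day, and replicate 2 of 14 d held 154 beside 45.4 to 81.4. The 1 d call was lost without replicate 1 of 0 d (-0.99) or of 1 d (-1.12), and the 14 d call without replicate 1 of 0 d (-0.97) or replicate 3 of 14 d (-0.99). At 28 d Myl3 held 308, 269, 161 and 182 FPKM, within the range of 0 d (0.30 ± 0.40, adjusted p = 0.564, rescaled -0.08). The exons of Myl2 and Myl3 overlap those of Ccdc63 and Pth1r on the opposite strand by 60 and 95 bases, and whether the counting used strand is not given in the sources used here.

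Other genes of slow fibres were also lower at 1 d and 3 d and higher at 28 d. The 9 slow fibre genes (Myh7, Tnnt1, Tnni1, Tnnc1, Tpm3, Atp2a2, Casq2, Myoz2 and Myh7b) had 8 lower and 0 higher at 1 d, with a median of -1.29 log2 beside 0.03 over all tested genes. At 3 d 6 were lower, at 5 d and 14 d 0 were called, at 7 d Myh7b was lower, and at 28 d 7 were higher and 0 lower, with a median of 1.28 beside 0.14. Their summed FPKM was 326 to 791 at 0 d and 132 to 186 at 1 d. It then went from 104 to 245 at 3 d up to 1113 to 1901 at 28 d. Between these times Myl3 (5 d to 21 d) and Myl2 (5 d and 7 d) were called lower as deposited. The median slow sum from 5 d to 21 d was 379, 347, 398 and 459 FPKM in turn, beside 404 at 0 d. At 21 d Tnnt1 (0.97 log2) and Casq2 (0.70) were higher and Myh7b (-0.63) was lower, and after rescaling 0 of the 9 were higher and 3 lower. The spread of Myl2 within a day also went with them. In 8 of 8 time points the library with the highest slow sum had the highest Myl2, and in 7 of 8 the highest Myl3, while this was so in 5 of 8 for Myl4 and Myl6b, in 3 of 8 for Mylpf and in 2 of 8 for Acta1, Actc1, Acta2, Myl1 and Mylk2. The part of the slow sum in the Myl2 and Myl3 values was not tested.

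**Figure D3:**
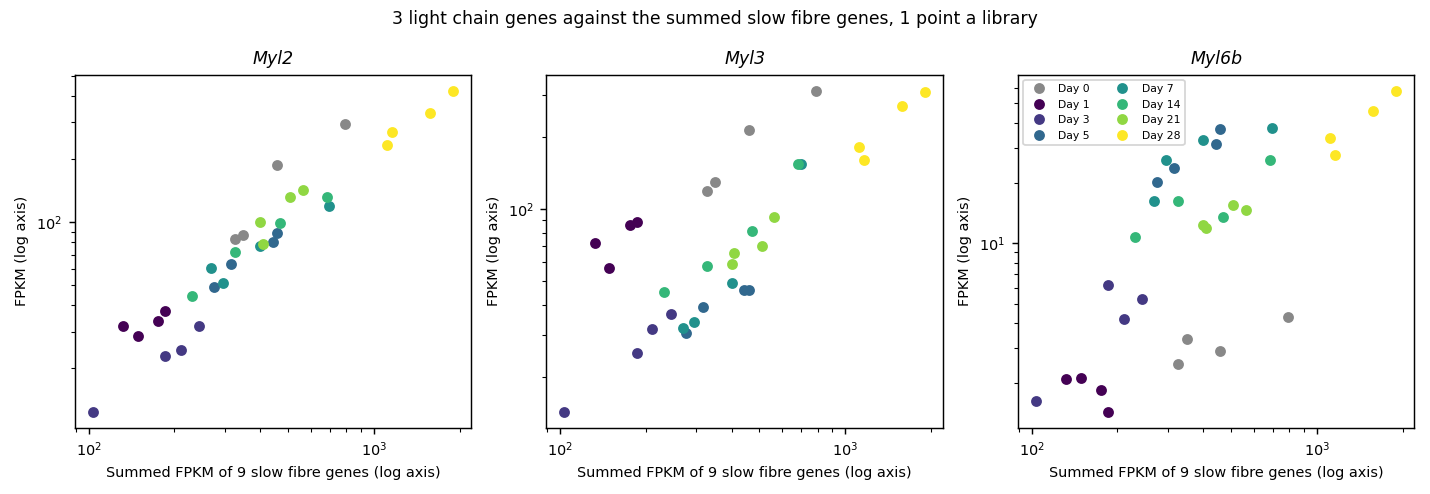
FPKM of Myl2, Myl3 and Myl6b (vertical, log axis) against the summed FPKM of 9 slow fibre genes in the same library (horizontal, log axis), with 1 point a library coloured by day. Myl2 is broadly higher where the slow sum is higher, though not alike on all days. At slow sums of 459 and 458 FPKM it held 188 FPKM (replicate 2 of 0 d) and 89.0 FPKM (replicate 4 of 5 d). The Myl6b points of 0 d (2.49 to 4.29 FPKM) lie below those of 5 d (20.3 to 37.4 FPKM) at similar slow sums.

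Myl4 and Myl6b were the essential chains that rose. Myl4 (ENSMUSG00000061086, chr11:104550663-104595753, plus strand), the embryonic chain, held 2.39, 1.52, 2.13 and 2.72 FPKM at 0 d and 1.41, 1.58, 1.57 and 1.46 FPKM at 1 d. It was higher from 3 d on, where the libraries held 10.5, 13.9, 11.5 and 15.1 FPKM (2.11 ± 0.12 log2, adjusted p = 1.27e-14). The largest mean was 24.8 ± 4.63 FPKM (SD, n = 4) at 7 d, 11.3 times the mean of 0 d, and 14 d was alike at 24.7 ± 0.560. By 28 d Myl4 held 22.3, 19.8, 18.1 and 16.7 FPKM (2.67 log2, rescaled 2.38). Each library from 3 d on lay above all libraries of 0 d. The log2(FPKM + 1) scale understates this change, since the pseudocount of 1 is large beside such low levels. Exons of Myl4 merge to 4637 bases, of which a retained-intron transcript of 3273 bases is a large part, while its protein-coding transcripts run from 486 to 943 bases, so its FPKM is lower than a spliced length would give.

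Myl6b (ENSMUSG00000039824, chr10:128494157-128498685, minus strand), an essential chain found in slow fibres and in nonmuscle cells, was first called at 5 d and took a further step between 21 d and 28 d. It held 4.29, 2.90, 3.33 and 2.49 FPKM at 0 d. At 1 d all libraries were below 0 d (2.14, 1.44, 1.85 and 2.1 FPKM), with a difference of -0.55 ± 0.28 log2 (adjusted p = 0.155) that was called lower after rescaling (-0.71) and after quantile normalization (-0.70). At 3 d it held 1.63, 4.21, 6.19 and 5.29 FPKM and overlapped 0 d (0.25, adjusted p = 0.535). From 5 d on each library was above all of 0 d. It was higher at 5 d (23.7, 20.3, 31.2 and 37.4 FPKM, 2.76 ± 0.28, adjusted p = 2.84e-09), 7 d (2.74), 14 d (2.00), 21 d (1.79) and 28 d (3.27, adjusted p = 9.72e-11, rescaled 2.96). The 28 d libraries held 57.9, 45.6, 27.8 and 33.6 FPKM, above all of 21 d (12.0 to 15.5 FPKM).

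The windows of 250 bases before the RefSeq starts of these risers and of the 2 striated actins are printed because E-boxes (CANNTG, bound by Myod1 and Myog) and CArG boxes (bound by Srf) are the textbook elements of such genes. They come from RefSeq on GRCm38.p6, which held windows for 9 of the 10 genes, and capitals mark E-boxes, CArG boxes and TATAAA on either strand. Myl4 (chr11:104550413-104550662, plus strand) held 0 of these motifs and Myl6b (chr10:128498686-128498935, minus strand) held 1 E-box. E-boxes are common, in 66.2% of 32851 such windows and in at least 1 window of 7 of the 9 genes.
Myl4: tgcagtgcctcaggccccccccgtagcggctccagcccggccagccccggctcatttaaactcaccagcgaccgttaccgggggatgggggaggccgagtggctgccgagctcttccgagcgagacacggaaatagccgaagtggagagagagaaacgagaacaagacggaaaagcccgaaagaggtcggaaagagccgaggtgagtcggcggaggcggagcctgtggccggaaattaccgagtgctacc
Myl6b: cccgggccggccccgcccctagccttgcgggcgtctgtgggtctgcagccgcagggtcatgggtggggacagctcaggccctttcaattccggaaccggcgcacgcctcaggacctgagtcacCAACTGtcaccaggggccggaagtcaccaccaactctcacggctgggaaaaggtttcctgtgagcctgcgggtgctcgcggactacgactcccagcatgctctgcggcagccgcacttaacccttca

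The Acta1 window (chr8:123894776-123895025, minus strand) held 1 CArG box starting at -73 from the start, 2 E-boxes and 1 TATAAA. The Actc1 window (chr2:114052876-114053125, minus strand) held 1 CArG box at -47. CArG boxes were present in 1.47% of all windows and in 3 of the 9 genes, the third being Myl3, and TATAAA was present in 12.4%. MEF2 sites were searched for too and were in 0 of the 9 genes and in 2.92% of all windows. Some windows do not cover the annotated start, since both Myl2 windows lie 7762 and 8227 bases from the nearest GENCODE start, and 217 of 250 bases for Acta2 and 103 for Myl1 lie in GENCODE exons, so these counts describe the RefSeq windows only. A match in a window is a description of its letters and not a binding site.
Acta1: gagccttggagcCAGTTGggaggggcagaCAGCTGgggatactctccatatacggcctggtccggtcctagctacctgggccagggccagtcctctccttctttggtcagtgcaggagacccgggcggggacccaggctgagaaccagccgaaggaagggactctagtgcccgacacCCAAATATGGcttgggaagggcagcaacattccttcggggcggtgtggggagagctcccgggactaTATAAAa
Actc1: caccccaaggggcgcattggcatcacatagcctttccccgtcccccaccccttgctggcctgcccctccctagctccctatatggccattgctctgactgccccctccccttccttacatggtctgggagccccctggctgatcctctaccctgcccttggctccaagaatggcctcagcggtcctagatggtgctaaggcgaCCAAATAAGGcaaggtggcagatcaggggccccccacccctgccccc

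Mylk2 (ENSMUSG00000027470, chr2:152911352-152923068, plus strand), the kinase of the regulatory chain, had the largest loss of the 10 genes at 28 d. It held 250, 250, 285 and 256 FPKM at 0 d, 160, 157, 211 and 185 FPKM at 1 d and 113, 90.5, 79.9 and 89.4 FPKM at 3 d. At every later time each library lay below all of 0 d. The 1 d difference was -0.55 ± 0.13 log2 (adjusted p = 0.00103), short of 1.5-fold, called after rescaling (-0.74) and called without replicate 3 of 1 d (-0.63). From 3 d on it was lower by -1.48, -2.42, -3.19, -2.98, -3.02 and -3.36 at the 6 times in turn (28 d adjusted p = 2.41e-18, rescaled -3.74). At 28 d the libraries held 22.3, 22.8, 22.8 and 30.3 FPKM, 9.44% of the 0 d mean.

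Between neighbouring time points, 15 of the 70 gene-by-step differences were called, and they fell mostly in the first 5 d. The step from 1 d to 3 d had 4 lower genes (Actc1, Myl1, Myl3 and Mylk2, -0.93 to -1.57 log2) and 2 higher (Myl4 at 2.44 and Myl6b at 0.80), with 10.6% of all tested genes called (6.63% higher and 3.93% lower). From 3 d to 5 d, Myl2 (1.61), Myl4 (0.69), Mylpf (0.71) and Myl6b (2.51) were higher and Mylk2 (-0.94) was lower, beside 5.76% of all genes (3.72% higher and 2.05% lower). After rescaling, Myl4 (0.54) and Mylpf (0.56) were short of 1.5-fold in that step. Only Mylk2 moved from 5 d to 7 d (-0.77, adjusted p = 0.000582), when 0.657% of all genes were called. From 7 d to 14 d and from 14 d to 21 d, 0 of the 10 genes were called, beside 0.634% (0.376% higher and 0.258% lower) and 0.453% (0.0906% higher and 0.362% lower) of all genes, and at an unadjusted p under 0.05 the counts were 3 and 1, beside 13.2% and 13.2% of all genes. From 21 d to 28 d, Myl6b was higher (1.48 ± 0.28, adjusted p = 0.00598), and 0.199% of all tested genes were called (0.159% higher and 0.0408% lower). Myl2 (1.47, adjusted p = 0.0538) and Myl3 (1.63, adjusted p = 0.0588) did not pass in that last step. From 14 d to 28 d, in a comparison added after the values were seen, Actc1 (1.42), Myl2 (1.92), Myl3 (1.54) and Myl6b (1.27) were higher, 4 of 10 beside 0.512% of all genes.

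Ratios between isoforms that fill the same place do not depend on the library total. They do rest on the merged exon lengths, such as 4637 bases for Myl4 and 2074 for Myl1. The percentages below are therefore ratios of FPKM and not shares of transcripts. Myl4 was 0.0461% of Myl1 at 0 d (geometric mean, n = 4) and 0.726% at 3 d, 0.902% at 5 d and 0.465% at 28 d, so that the log2 ratio was higher by 3.98, 4.29 and 3.33. The groups did not overlap from 3 d on, and the two-sided exact permutation p was 0.0286 at each of these times, the smallest that 4 against 4 libraries can give, or 0.0615 adjusted over the 28 ratio tests. Myl2 was 2.01% of Mylpf at 0 d, and later 0.683% (1 d), 0.594% (3 d) and 7.33% (28 d). The latter 3 were apart from 0 d, with differences of -1.56, -1.76 and 1.87 log2 and an exact permutation p of 0.0286 each (adjusted 0.0615). Myl3 was 3.69% of Myl1 at 0 d, 1.46% at 3 d and 5.37% at 28 d, with an exact permutation p of 0.0286 at 3 d (adjusted 0.0615) and 0.257 at 28 d. Actc1 was 0.361% of Acta1 at 0 d, 0.133% at 3 d (-1.44 log2, exact permutation p = 0.0286, adjusted 0.0615) and 0.523% at 28 d (0.54 log2, exact permutation p = 0.286). No ratio passed an adjusted p of 0.05 by the exact tests, which 13 of 28 tests at the smallest p could not reach, while by limma on the ratios 16 of 28 passed.

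**Figure D4:**
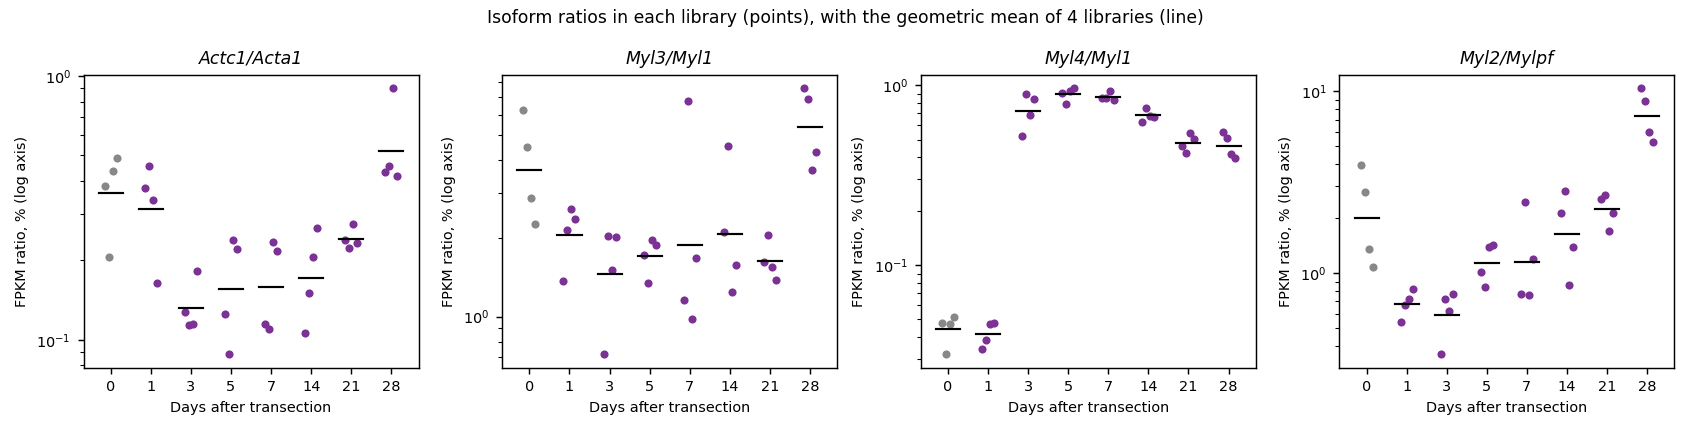
Ratios of FPKM between isoforms in percent (log axis) against days after transection, with 1 point a library and a line at the geometric mean. Myl4 over Myl1 steps up at 3 d in all 4 libraries, and Myl2 over Mylpf passes from 0.594% at 3 d to 7.33% at 28 d.

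The order of the levels changed in its lower part. By FPKM per length, 0 d ran Acta1 (13883), Mylpf (7053), Myl1 (4874), Mylk2 (260), Myl3 (194), Myl2 (163), Actc1 (51.7), Acta2 (38.2), Myl6b (3.25) and Myl4 (2.19). The ranges of Mylk2 and Myl3, Myl3 and Myl2, Actc1 and Acta2, and Myl6b and Myl4 overlapped, while the other neighbours were apart. At 28 d Mylk2 (24.6) was the ninth and Myl6b (41.2) had passed Acta2 (31.7), with ranges that overlapped between Actc1, Myl6b, Acta2 and Mylk2 in turn. Mylpf (4202) and Myl1 (4137) overlapped at 28 d, and Myl4 (19.2) was last. The place of Myl4 rests on its merged exon length, which lowers its FPKM as given above. At 0 d Myl4 had 105 to 200 fragments beside 73 to 122 for Myl6b. The places of other genes rest on such lengths too. Exons of Myl1 merge to 2074 bases, with a longest transcript of 1082, and those of Mylpf merge to 1062 bases. At 0 d Myl1 had 143848 to 172426 fragments, more than the 103677 to 129649 of Mylpf. The order is therefore one of FPKM and not of transcript numbers.

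Among 5 further light chains in the table, Myl12a, a regulatory chain of nonmuscle myosin, was higher from 3 d on. It averaged 13.7 FPKM at 0 d and 13.2 at 1 d, then 125 (3 d) and 111 (28 d, 2.94 log2, adjusted p = 1.27e-19, rescaled 2.57). Of its 3360 exon bases, 19.9% lie in exons of Myl12b or Myom1, and Myl12b itself was listed at 0.164 to 1.16 FPKM. Myl9, the smooth muscle regulatory chain, was lower at 1, 3, 7, 14 and 21 d (-0.80, -0.64, -0.74, -0.59 and -0.62 log2). At 28 d it averaged 32.3 FPKM beside 47.6 at 0 d, just short of 1.5-fold (-0.58, adjusted p = 0.014, rescaled -0.96). Myl10, a regulatory chain of low level here, was lower at 28 d (3.60 to 1.59 FPKM, -0.80 log2). At 28 d 1 of the 5 was higher and 1 lower, with a median of 0.12 beside 0.14 over all tested genes. The non-alpha actins Actb, Actg1 and Actg2 had 0 of 3 called at any time as deposited, and 1 lower at 14 d after rescaling.

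Of 10 genes for light chain kinases, calmodulin and the myosin phosphatase, 1 was higher and 2 lower at 28 d, with a median of -0.23, and after rescaling 1 was higher and 5 lower. Mylk4, another striated muscle kinase of this family, was lower at every time point, from 282 FPKM at 0 d to 45.2 at 1 d and 35.7 at 28 d (-2.96 log2, adjusted p = 3.75e-11). Unlike Mylk2 it was called at 1 d (-2.60), though the difference between the genes was not tested. Calm2, a calmodulin gene, was lower (194 to 112 FPKM) and Ppp1r12a, the targeting subunit of the phosphatase, was higher (7.61 to 17.0 FPKM, 1.07 log2, rescaled 0.72). Of 16 genes of actin filament length and turnover, 7 were higher and 2 lower at 28 d (median 0.44), and after rescaling 1 was higher and 6 lower. Lmod2, a leiomodin that lengthens thin filaments, was higher (109.5 to 410 FPKM, 1.91 log2, rescaled 1.53), and the turnover gene Pfn2 was lower (69.97 to 30.1 FPKM, -1.19).

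Of 13 genes for Srf, its cofactors and myogenic factors, 5 were higher and 2 lower at 28 d (median 0.48). The myogenic factors Myog (1.97 to 120 FPKM, 5.36 log2) and Myod1 (7.88 to 94.6 FPKM, 3.44 log2) had the largest changes, and Srf itself, named after its values were seen, was lower (23.5 to 14.99 FPKM, -0.63). Myog was already higher at 1 d (3.15 log2), when Myl4 and Myl6b were not. All of 6 immature fibre genes (Myh3, Myh8, Tnnt2, Myog, Ncam1 and Mymk) were higher from 5 d to 28 d, and 5 of 6 were at 3 d. Of 8 fast fibre genes 6 were lower at 28 d (median -0.76) and 1, Actn3, was higher (1865 to 2924 FPKM, 0.65 log2, rescaled 0.27 and not called), and Tnnc2 was listed at under 1.94 FPKM in all libraries, with 74% of its exon bases in exons of Ube2c. Among the heavy chains that carry these light chains, the fast Myh4 was lower at 28 d (5531 to 2629 FPKM, -1.07), the fast Myh1 was higher (500.5 to 918 FPKM, 0.90, rescaled 0.51 and short of 1.5-fold), and the slow Myh7 was higher (30.8 to 129 FPKM, 2.02). Embryonic Myh3 was higher from 3 d and neonatal Myh8 from 5 d, the days on which Myl4 and Myl6b were first called.

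Profiles of the 8 group means, centred on the log2 scale, were compared with those of 11931 genes averaging 1 FPKM or more, by root mean square distance. Nearest to Myl2 were Tnnc1 (0.34) and Myh7 (0.39), nearest to Myl6b were Myh8 (0.50) and Kcnq5 (0.52), and nearest to Myl4 were AC115692.3 (0.23) and Dapk2 (0.23). Mylf-ps (0.06) and Gstk1 (0.15) were nearest to Myl1. Smallest distances for Mylk2 were to Rpl3l (0.33) and Gm11967 (0.34), for Myl3 to Scd1 (0.42) and Fasn (0.45), and for Actc1 to Fmod (0.28) and Smyd1 (0.34). Acta1 lay nearest to Art1 (0.07) and Trim24 (0.07), Acta2 to 5430431A17Rik (0.06) and Cnn1 (0.09), and Mylpf to Fam19a3 (0.05) and Serpine2 (0.10). With 8 points a profile, such closeness is a description only.

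Marker genes of other cell types were measured in the same libraries. Macrophage genes (Adgre1, Cd68, Csf1r and Ptprc) summed to 17.0 to 22.8 FPKM at 0 d, 122 to 197 at 3 d and 47.9 to 53.8 at 28 d, and 4 of 4 were higher from 5 d on. Most of the 3 d sum was Cd68 (94.1 to 155 FPKM), and in replicate 1 of 3 d Adgre1 (2.18), Csf1r (6.55) and Ptprc (0.353) lay below all libraries of 0 d. Fibroblast genes summed to 331 to 460 FPKM at 0 d and 458 to 596 at 28 d, with 2 of 5 higher and sums that overlapped. Pericyte genes summed to 179 to 206 FPKM at 0 d and 138 to 161 at 28 d, with 2 of 5 lower, and endothelial genes summed to 68.0 to 78.1 and 48.3 to 58.7 FPKM, with 1 of 4 lower. The skeletal muscle sum was lowest at 3 d (5648 to 7134 FPKM), when Myl1, Mylpf and Actc1 were lowest too. Their part in the values of the 10 genes was not tested.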

How the data were processed

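The values were FPKM per gene in 32 columns, which the authors made and deposited as one table. Per the submitters' processing notes, CASAVA, HISAT2 2.1.0, DESeq2 and the GRCm38 build were used, without a stated role for each. The counting tool and its strand setting are not given in the sources used here. Multiplying FPKM by the merged exon length of GENCODE release M21 gave whole fragments for 99.3% to 99.4% of values below 200 fragments in every library (within 0.05), which gave the depth. Fragments of PCR-amplified libraries are not independent molecules.

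The fit kept the 22071 of 33397 genes that reached 0.1 FPKM in 4 or more of 32 libraries. The log2(FPKM + 1) values of all libraries were fitted together with limma 3.58.1 (R 4.3.3; lmFit and eBayes with trend), with 8 groups and no covariate. Calls needed a fold of 1.5 or more and an adjusted p (Benjamini-Hochberg) under 0.05. The added 1 shrinks the fold changes of low genes. Isoform ratios, with 0.1 added to each FPKM, were compared by two-sided exact permutation tests. The fit was tested on simulated data. Alternatives were median-ratio, TPM and quantile scaling, scaling without mitochondrial genes and the 10 genes, voom on fragments, other filters and pseudocounts, no fold threshold, 2 groups a fit and leaving out each library.

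All 10 genes were named, with the 2 genes nearest in profile for each. From each list of related genes, up to 4 with the largest change at 28 d were to be named. Some marker lists were given in full, and some genes, such as Srf and Myh1, were named beyond this rule. The genes and lists were chosen with earlier results of these data known. The comparisons of 28 d with 3 d and 14 d were added after the values were seen.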

Additional observations from a re-analysis of the deposited data

Results flagged for a closer look

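In 4 of the 80 groups of 4 libraries (10 genes at 8 times), 1 library lay apart from the others by Dixon's criterion, which chance gives in about 1 of 20 groups. Acta1 in replicate 4 of 0 d was 11652.5 FPKM beside 14567 to 14741. Acta2 in replicate 3 of 7 d was 18.33 FPKM beside 25.95 to 27.1. Myl3 in replicate 2 of 7 d was 154.7 FPKM beside 32.13 to 49.1. Mylk2 in replicate 4 of 28 d was 30.33 FPKM beside 22.34 to 22.77.

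Myl2 was called lower than 0 d from 1 d to 7 d and higher at 28 d (1.11 log2) as deposited. The 28 d groups overlapped, and that call was lost after median-ratio scaling (0.73, adjusted p = 0.0934 by limma) and without replicate 3 (0.88) or 4 (0.86) of 0 d, while the 5 d and 7 d calls were lost without single libraries. The difference between 28 d and 3 d, tested directly with limma, was 3.759 log2 (adjusted p = 1.25e-09).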

How the results depend on the processing

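Of the 70 differences from 0 d, 41 were called, and 29 of these kept their call and direction in every alternative run. The number of the 10 genes called at 1 d was 2 as deposited, 6 without a fold threshold (29.4% of all tested genes) and 7 after median-ratio scaling (8.81%). At 14 d it was 6, and 10 after median-ratio scaling (14.1%). At 21 d it was 5, and 8 without a fold threshold (41.8%), after median-ratio scaling (13.6%) and when scaled without mitochondrial genes and the 10 genes (14%). Isoform ratios that passed numbered 0 by exact tests and 16 of 28 by limma. The Acta1 difference at 28 d reversed to 0.12 after quantile normalization. The cause of these changes was not tested.

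Leaving out 1 library at a time gave 1 to 3 called genes at 1 d, 7 to 7 at 3 d, 6 to 7 at 5 d, 6 to 8 at 7 d, 4 to 8 at 14 d, 5 to 6 at 21 d, 5 to 6 at 28 d, 14 to 17 called steps, 9 to 10 genes passing the F test and 0 to 0 isoform ratios. A ratio can pass the exact tests only if many of the ratio tests reach the smallest p, so this 0 says little of stability. No paired analysis was possible because the column letters are tied to no sample title and so pair no libraries. With 4 libraries a group, exact tests cannot go below 0.0286, and for Myl6b at 1 d, where a library held 41 to 64 fragments, depth limits the precision.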
